A study of Mus musculus with 10 samples.

Results

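The transcription factor genes Prdm1, Irf4, Irf8, Batf, Maf, Ahr, Id2 and Bhlhe40 were followed across all 10 microarrays of sorted lymph node CD4+ T cells, as 8 of the 30738 genes that the array annotation names. They were chosen by name as factors associated with effector regulatory T (Treg) cells. No rule on their signal was used, but earlier results of these data were known when they were chosen. Each gene was measured by the probe set (the probes that together report 1 transcript) whose annotation names that gene alone. Every one of the 8 genes had exactly 1 such probe set, and no further probe set named it together with another gene.

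Mice of all groups were females of 6 to 8 weeks on the C57BL/6 background that carried a Foxp3-RFP reporter, in which red fluorescent protein marks cells expressing Foxp3, the lineage factor of Treg cells. Il2ramut/mut mice are homozygous for a spontaneous point mutation in Il2ra, the gene of the high affinity IL-2 receptor chain CD25. The line was derived from a Ccr2-/- colony and bred free of the Ccr2 deletion, and WT mice carry the normal Il2ra alleles. The groups were Il2ramut/mut Treg cells (RFP+, 3 arrays), WT Treg cells (RFP+, 3 arrays), Il2ramut/mut conventional T (Tconv) cells (RFP-negative, 2 arrays) and WT Tconv cells (RFP-negative, 2 arrays), each from 50000 sorted cells. According to the methods, Tconv cells were sorted as naive cells with high CD62L, low CD44 and no surface CD25, so Treg against Tconv comparisons set all Treg cells against naive cells. Each array is drawn as 1 mouse in the study, and with 2 or 3 arrays in a group all values are of limited precision. The design asks how a weakened response to IL-2 changes gene expression in Treg and in Tconv cells.

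Treg cells that meet antigen or inflammation can pass from a resting, lymphoid-homing state to an effector state, in which they divide, change their homing receptors and produce IL-10 and other suppressive molecules. T cell receptor signals induce the AP-1 factor BATF and the interferon regulatory factor IRF4, which bind DNA together and are needed for this transition, and IRF4 acts upstream of Prdm1. IL-2 supports Treg cells mainly through the transcription factor STAT5. Because whole populations were measured, a lower signal from fewer expressing cells and one from less RNA in each cell cannot be told apart.

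Values are signals on the log2 scale, where a difference of 1 is a doubling, and signals of different probe sets are not compared with each other. A probe set was called different when its adjusted p in limma, a linear model fitted to all 65956 transcript probe sets with Benjamini-Hochberg adjustment, was under 0.05. Background on an array was the 95th percentile of 23 control probe sets that match no mouse transcript, and it lay between 4.98 and 5.54. Array medians lay between 4.97 and 5.13, and 40.3% to 51.3% of probe sets exceeded background. All 6 measured T cell markers exceeded background on every array, and all 7 measured Treg markers were called higher in Treg than in Tconv cells in either genotype. The Il2ra signal, which does not read the point mutation, was 15.14 to 15.31 in Il2ramut/mut Treg cells, against 14.92 to 15.01 in WT Treg cells, and 6.04 to 6.09 in Il2ramut/mut Tconv cells and 6.38 to 6.48 in WT Tconv cells. Of the 8 transcription factor genes, 7 exceeded background on all 10 arrays, and Bhlhe40 did so on the 6 Treg arrays only.

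In Treg cells, Prdm1, Maf and Ahr were called higher in Il2ramut/mut mice relative to WT, 3 of the 8 genes, and none was called lower (0.202% of all probe sets were). The differences were 1.82-fold for Prdm1, 1.65-fold for Maf and 2.08-fold for Ahr. Irf4 and Id2 were also higher on every mutant array but did not pass the adjusted test, and Batf, Irf8 and Bhlhe40 overlapped between the genotypes. Across all probe sets, 0.171% were called higher in Il2ramut/mut Treg cells, and 0.311% of the 34352 above background on at least 2 arrays.

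Prdm1 encodes Blimp-1, a zinc finger repressor that effector Treg cells need for IL-10 production. Its signal was 8.67, 8.42 and 8.71 in Il2ramut/mut Treg cells, against 7.84, 7.61 and 7.75 in WT Treg cells. The lowest mutant array lay 0.58 above the highest WT array, so the groups were clearly apart. The difference was 0.87 ± 0.11 (SE, 95% confidence interval 0.61 to 1.12, limma adjusted p = 0.0160).

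Maf encodes c-MAF, a basic leucine zipper factor that promotes Il10 transcription in several T cell subsets. It gave 14.86, 14.82 and 15.09 in Il2ramut/mut Treg cells, against 14.02, 14.33 and 14.24 in WT Treg cells. Every mutant array was at least 0.49 above every WT array. The difference was 0.72 ± 0.11 (SE, 95% confidence interval 0.47 to 0.98, limma adjusted p = 0.0355).

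Ahr encodes the aryl hydrocarbon receptor, a transcription factor that is activated by small aromatic ligands and binds DNA with ARNT. Its signal was 10.45, 10.53 and 10.90 in Il2ramut/mut Treg cells, against 9.64, 9.77 and 9.31 in WT Treg cells. The arrays were apart by 0.68, the widest gap among the 8 genes in this comparison. The difference was 1.05 ± 0.15 (SE, 95% confidence interval 0.71 to 1.39, limma adjusted p = 0.0243), at the 99.75th percentile of differences among probe sets above background on at least 2 arrays.

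**Figure D1:**
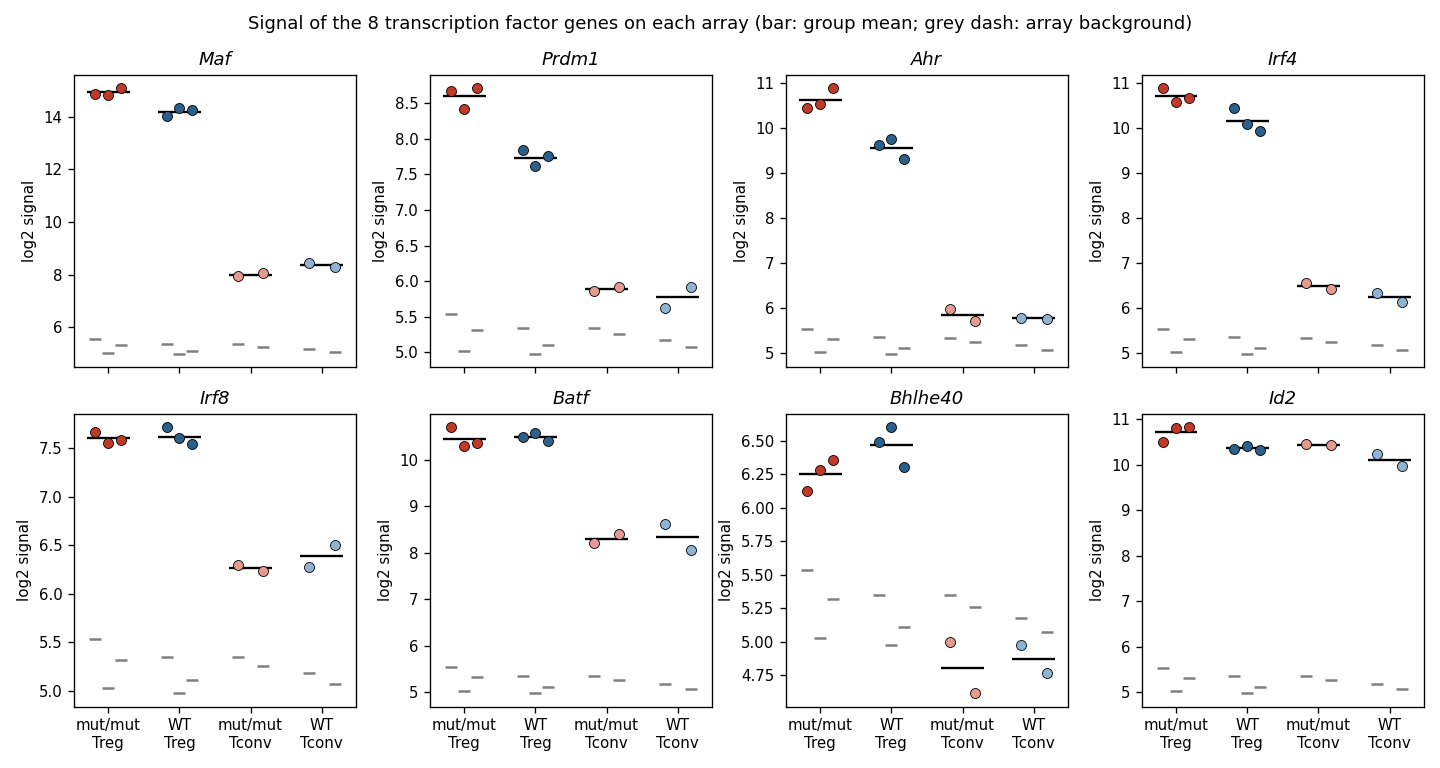
Log2 signal of each of the 8 genes (y axis, scaled per gene) on each array of the 4 groups (x axis). Points are arrays, black bars are group means and grey dashes are the background level of each array. Prdm1, Maf and Ahr separate Il2ramut/mut from WT Treg arrays by 0.49 to 0.68, while Bhlhe40 lies at or below background on all 4 Tconv arrays.

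The direction of these 3 genes was the same with any array left out, but each call was lost in some of the fits. Prdm1 was called in 6 of 10 fits that each left out 1 array, and lost the call without WT Treg replicate 2 or 3 or without Il2ramut/mut Treg replicate 1 or 3 (limma adjusted p between 0.0234 and 0.0838 over the 10 fits). Ahr was called in 4 of 10 and lost the call without any of the 6 Treg arrays (0.0374 to 0.0841). Maf was called in 0 of 10 (0.0535 to 0.117), and its difference stayed between 0.64 and 0.79. A fit with the replicate number as a block called none of the 3, with limma adjusted p of 0.0608 for Prdm1.

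**Figure D2:**
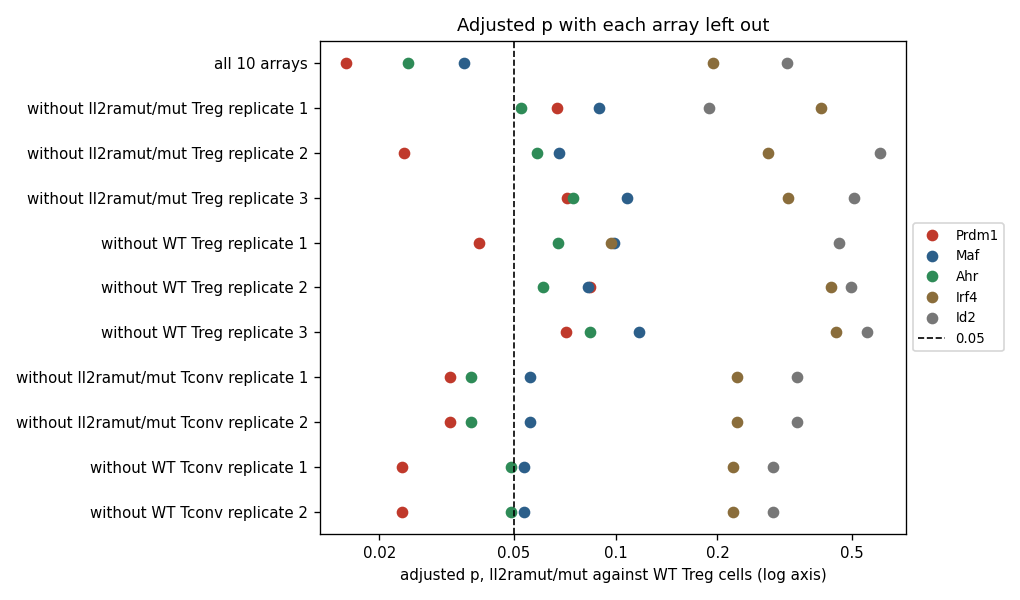
Adjusted p of the Il2ramut/mut against WT Treg comparison (x axis, log scale) for 5 genes with all 10 arrays and with each array left out (y axis). The dashed line marks 0.05. Prdm1 stays below it in 6 of 10 leave-out fits, Ahr in 4 and Maf in 0, and Irf4 and Id2 lie above it throughout.

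Irf4 and Irf8 are members of the interferon regulatory factor family that can both bind DNA beside BATF, and of the pair only Irf4 stood apart between the genotypes in Treg cells. Irf4, needed for effector Treg differentiation, gave 10.90, 10.58 and 10.67 in Il2ramut/mut Treg cells, against 10.45, 10.09 and 9.95 in WT Treg cells. The mutant arrays were all higher, with a gap of 0.14. The difference of 0.55 ± 0.14 (SE, 95% confidence interval 0.24 to 0.87) did not pass the test across all probe sets (limma adjusted p = 0.194).

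Irf8, best known for its role in dendritic cell and macrophage development, gave 7.67, 7.55 and 7.59 in Il2ramut/mut Treg cells, against 7.72, 7.60 and 7.55 in WT Treg cells. The arrays of the genotypes were interleaved. The difference was -0.02 ± 0.09 (SE, limma adjusted p = 0.974), with a 95% confidence interval from -0.22 to 0.18. Whether the genotype difference of Irf4 exceeds that of Irf8 was not tested, since they are separate probe sets.

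Batf, the AP-1 partner of IRF4, had 10.70, 10.29 and 10.35 in Il2ramut/mut Treg cells, against 10.48, 10.57 and 10.41 in WT Treg cells. The mutant group held both the highest and the lowest of these arrays. The difference was -0.04 ± 0.16 (SE, limma adjusted p = 0.968), with a 95% confidence interval from -0.39 to 0.31.

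Id2 encodes a helix-loop-helix protein without a DNA-binding region that holds E proteins away from DNA. It gave 10.51, 10.82 and 10.83 in Il2ramut/mut Treg cells, against 10.36, 10.42 and 10.33 in WT Treg cells. The mutant arrays were all higher by a narrow gap of 0.089. The difference was 0.35 ± 0.11 (SE, 95% confidence interval 0.11 to 0.60, limma adjusted p = 0.320).

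Bhlhe40 encodes a basic helix-loop-helix repressor that restrains Il10 in T cells. Its signal was 6.13, 6.28 and 6.36 in Il2ramut/mut Treg cells, against 6.49, 6.60 and 6.31 in WT Treg cells. The lowest WT array lay below the highest mutant array, so the groups overlapped. The difference was -0.21 ± 0.13 (SE, 95% confidence interval -0.50 to 0.08, limma adjusted p = 0.653).

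Over the 8 genes, the median genotype difference in Treg cells was 0.45, against -0.002 over all probe sets and -0.04 over those above background on at least 2 arrays. For 5 of the 8 genes every mutant array lay above every WT array, a pattern shown by 8.24% of all probe sets. The same 5 genes had an unadjusted p under 0.05 in the limma fit, as did 9.88% of all probe sets. These counts describe genes picked by name with earlier results of these arrays known.

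In Tconv cells, none of the 8 genes was called different between the genotypes, where 0.00303% of all probe sets (2 of them) were called in either direction. By unadjusted limma p under 0.05 there were 2 genes, Maf and Id2, as for 7.09% of all probe sets, and the methods' t-test (the study's equal-variance test on the arrays compared) called 0 after Benjamini-Hochberg adjustment. Arrays of the genotypes did not overlap for 3 of the 8 genes, as for 32.9% of all probe sets with 2 arrays in each group.

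Maf had 7.93 and 8.07 in Il2ramut/mut Tconv cells, against 8.46 and 8.28 in WT Tconv cells. Both mutant arrays were lower, opposite to the direction in Treg cells. The difference was -0.37 ± 0.14 (SE, 95% confidence interval -0.68 to -0.06, limma adjusted p = 0.646).

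Id2 had 10.45 and 10.44 in Il2ramut/mut Tconv cells, against 10.23 and 9.97 in WT Tconv cells. Both mutant arrays were higher, and the difference of 0.34 ± 0.13 (SE, limma adjusted p = 0.666) was close in size to that in Treg cells. Irf4 gave 6.57 and 6.43 in Il2ramut/mut Tconv cells and 6.35 and 6.13 in WT Tconv cells, again with both mutant arrays higher (difference 0.26 ± 0.17, SE, limma adjusted p = 0.821).

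The arrays of the remaining genes overlapped between the genotypes in Tconv cells. Prdm1 had 5.87 and 5.92 in Il2ramut/mut and 5.63 and 5.93 in WT Tconv cells. Ahr had 5.99 and 5.71 in Il2ramut/mut and 5.78 and 5.76 in WT Tconv cells. Both genes were above background on every Tconv array, with 95% confidence intervals of the genotype difference from -0.20 to 0.43 for Prdm1 and from -0.34 to 0.50 for Ahr.

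Irf8 had 6.30 and 6.24 in Il2ramut/mut and 6.28 and 6.50 in WT Tconv cells. Batf had 8.21 and 8.40 in Il2ramut/mut and 8.62 and 8.06 in WT Tconv cells, where the WT arrays lay on either side of the mutant ones. Bhlhe40 had 4.998 and 4.62 in Il2ramut/mut and 4.97 and 4.77 in WT Tconv cells, all at or below array background, so no fold is given.

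**Figure D3:**
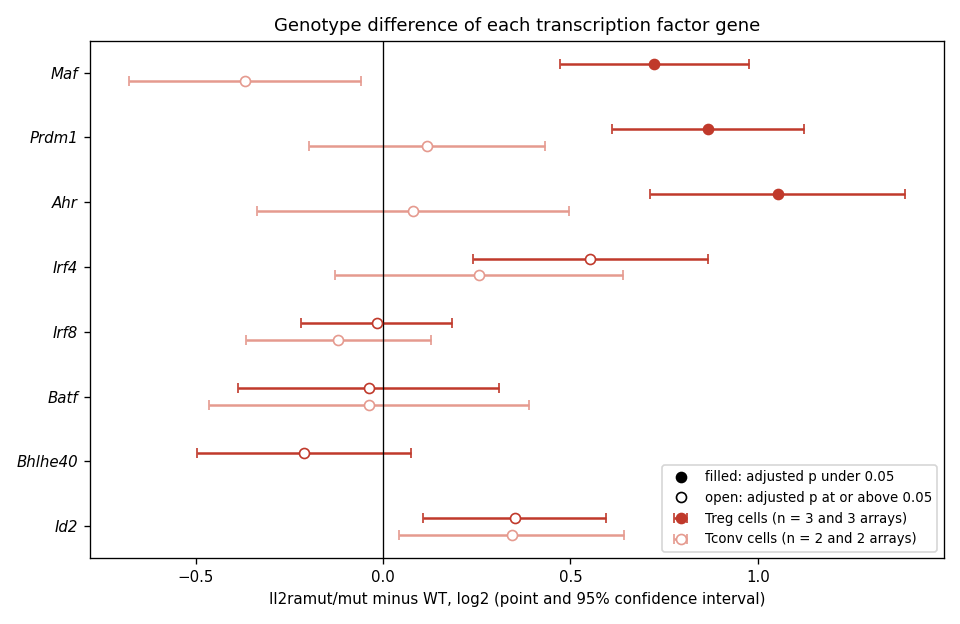
Il2ramut/mut minus WT difference on the log2 scale (x axis) of each gene (y axis) in Treg cells (dark red, 3 and 3 arrays) and Tconv cells (light red, 2 and 2 arrays). Points are limma estimates with 95% confidence intervals, and filled points are called. Prdm1, Maf and Ahr are filled in Treg cells, with 0.87, 0.72 and 1.05, and no point is filled in Tconv cells, where Bhlhe40 is left out because it was at background.

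Whether the genotype difference itself differed between Treg and Tconv cells was tested as an interaction, and none of the 8 genes passed (1 of all probe sets did, 0.00152%). At an unadjusted limma p under 0.05 there were 3 genes, as for 6.52% of all probe sets. Maf had the largest interaction, 1.09 ± 0.18 (SE, 95% confidence interval 0.69 to 1.49), ranked 49 by p among all probe sets with a limma adjusted p of 0.184. The value was 0.97 ± 0.24 for Ahr (SE, limma adjusted p = 0.371) and 0.75 ± 0.18 for Prdm1 (SE, limma adjusted p = 0.367). Of the other genes, Irf4 had 0.30, Irf8 0.10, Id2 0.0082 and Batf -0.00074, and no value is given for Bhlhe40, whose Tconv arrays were all at background. A genotype effect on Prdm1, Maf or Ahr that is particular to Treg cells was therefore not shown by the adjusted test.

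Differences between the cell types were wider than those between the genotypes for 7 of the 8 genes. In either genotype, 7 of the 8 genes were called higher in Treg than in Tconv cells, all but Id2. Among all probe sets, 5.43% were called higher in Il2ramut/mut Treg than in Il2ramut/mut Tconv cells and 4.37% in WT Treg than in WT Tconv cells (10.1% and 8.28% of those above background on at least 2 arrays). For all 8 genes, Id2 included, every Treg array lay above every Tconv array of its genotype, as for 13.0% of all probe sets in Il2ramut/mut cells and 12.2% in WT cells. The comparisons of both genotypes and those between genotypes use the same arrays and are not independent of each other.

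Maf had the widest Treg against Tconv difference of the 8. It was 6.92 ± 0.13 in Il2ramut/mut cells (SE, 121-fold, limma adjusted p = 2.89e-09), ranked 6 of all 65956 probe sets by p. In WT cells it was 5.83 ± 0.13 (SE, 56.8-fold, limma adjusted p = 3.93e-09), ranked 25.

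Ahr followed with 4.78 ± 0.17 in Il2ramut/mut cells (SE, limma adjusted p = 1.06e-07) and 3.80 ± 0.17 in WT cells (SE, limma adjusted p = 5.54e-07). Irf4 differed by 4.22 ± 0.16 in Il2ramut/mut cells (SE, 18.6-fold) and 3.92 ± 0.16 in WT cells (SE, 15.2-fold). The Tconv arrays of these genes lay between 5.71 and 6.57, above background in every case. Prdm1 was higher by 2.71 ± 0.13 in Il2ramut/mut cells (SE, 6.54-fold) and by 1.96 ± 0.13 in WT cells (SE, 3.89-fold).

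Batf and Irf8, which overlapped between the genotypes, were also raised in Treg cells. Batf was higher by 2.14 ± 0.17 in Il2ramut/mut cells and by 2.14 ± 0.17 in WT cells (SE, both 4.42-fold), and its Tconv signal of 8.06 to 8.62 lay well above background. Irf8 was higher by 1.34 ± 0.10 in Il2ramut/mut cells (SE, 2.52-fold) and by 1.23 ± 0.10 in WT cells (SE, 2.35-fold).

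Bhlhe40 gives only a bound because all Tconv arrays were at or below background. It was at least 1.94-fold higher in Il2ramut/mut Treg cells (limma adjusted p = 0.000117) and at least 2.53-fold higher in WT Treg cells (limma adjusted p = 7.25e-05).

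Id2 differed least between the cell types, by 0.27 ± 0.12 in Il2ramut/mut cells (SE, 95% confidence interval 0.00 to 0.55, limma adjusted p = 0.209) and 0.27 ± 0.12 in WT cells (SE, 95% confidence interval -0.01 to 0.54, limma adjusted p = 0.263). By group mean, Id2 was in the order 10.72 in Il2ramut/mut Treg, 10.45 in Il2ramut/mut Tconv, 10.37 in WT Treg and 10.10 in WT Tconv cells, so that it was the only gene of the 8 whose mutant Tconv cells ranked above WT Treg cells. No neighbours in that order overlapped, with gaps under 0.1 between each pair.

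**Figure D4:**
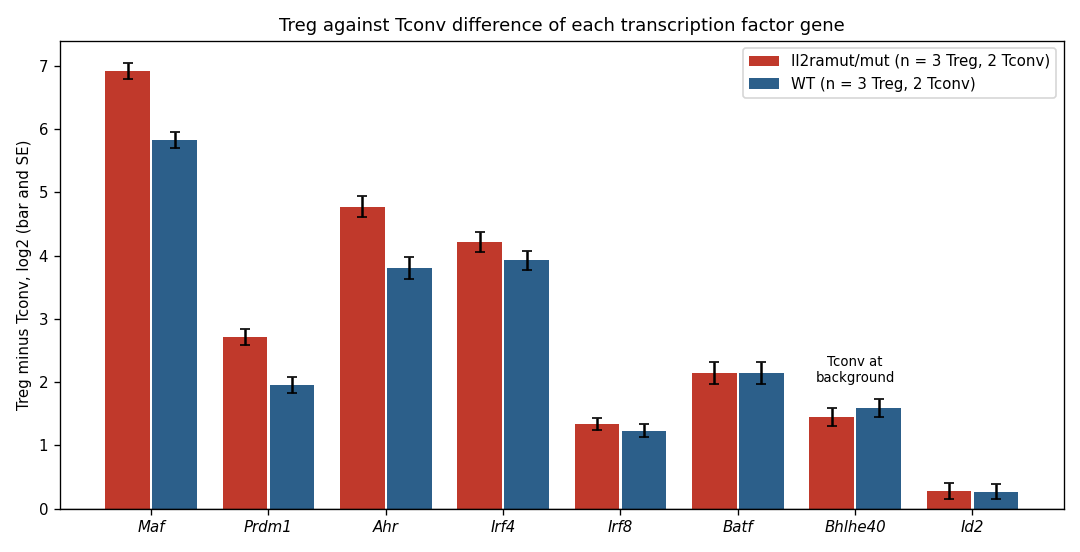
Treg minus Tconv difference on the log2 scale (y axis) of each gene (x axis) in Il2ramut/mut cells (red) and WT cells (blue), with 3 Treg and 2 Tconv arrays each. Bars are limma estimates with SE. Maf reaches 6.92 and 5.83 and Id2 0.27 in both, and the bars of Bhlhe40 are fitted values against Tconv arrays at background.

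Sequences around the start site are shown for Prdm1, which was called between the genotypes, and for Irf4 and Irf8, relatives that differed in how far the genotypes stood apart. RefSeq (GRCm38.p6) held promoters (250 bases before to 50 bases after the start site) of 5 of the 8 genes, and Maf, Ahr and Bhlhe40 had no entry. They were searched on both strands for TTCNNNGAA (the STAT5 motif), TGANTCA (AP-1), GAAANNGAA (the interferon response core bound by IRF factors and Blimp-1), CACGTG (bound by BHLHE40) and GCGTG (the AHR core). Capitals mark the matches, none of which overlapped another. The Prdm1 promoter is chr10:44458699-44458998 on the minus strand, the Irf4 promoter chr13:30748983-30749282 on the plus strand and the upstream of the listed Irf8 promoters chr8:120736108-120736407 on the plus strand.
Prdm1: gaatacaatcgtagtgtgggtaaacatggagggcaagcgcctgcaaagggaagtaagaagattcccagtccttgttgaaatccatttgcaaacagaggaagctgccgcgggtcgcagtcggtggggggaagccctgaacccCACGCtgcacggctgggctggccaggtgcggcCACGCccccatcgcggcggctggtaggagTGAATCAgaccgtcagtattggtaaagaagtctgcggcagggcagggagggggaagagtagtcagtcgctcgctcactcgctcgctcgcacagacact
Irf4: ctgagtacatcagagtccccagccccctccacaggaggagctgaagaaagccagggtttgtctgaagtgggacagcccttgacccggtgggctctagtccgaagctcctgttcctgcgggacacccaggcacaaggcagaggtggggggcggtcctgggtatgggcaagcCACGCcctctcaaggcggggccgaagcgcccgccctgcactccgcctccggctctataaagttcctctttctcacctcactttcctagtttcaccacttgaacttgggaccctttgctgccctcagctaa
Irf8: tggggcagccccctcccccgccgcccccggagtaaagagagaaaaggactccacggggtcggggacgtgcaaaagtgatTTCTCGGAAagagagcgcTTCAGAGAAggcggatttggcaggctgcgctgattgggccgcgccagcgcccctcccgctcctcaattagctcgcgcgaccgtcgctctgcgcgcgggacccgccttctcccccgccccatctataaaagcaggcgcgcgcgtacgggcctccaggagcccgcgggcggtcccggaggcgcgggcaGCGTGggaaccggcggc
The Prdm1 promoter held TGAATCA, an AP-1 match, at position -48 from the start site, and 2 matches of the AHR core on the opposite strand, and the Irf4 promoter held 1 of the latter kind. The Irf8 promoter held TTCTCGGAA and TTCAGAGAA, both STAT5 matches, at positions -171 and -153, and 1 AHR core after it. The downstream Irf8 promoter and those of Batf and Id2 held no match to any of the 5 motifs. Of all 32851 promoters of this length, 8.30% held the STAT5 motif, 7.81% the AP-1 motif, 8.56% the interferon response core, 7.15% CACGTG and 32.4% the AHR core. A match in this window is a description of letters and says nothing of binding in these cells.

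Genes that work with the 8 factors or resemble them were set beside them in the Treg comparison, from lists assembled with earlier results of these data known. There, 7 of 63 measured relatives had an unadjusted limma p under 0.05, as did 9.88% of all probe sets. The methods' t-test with Benjamini-Hochberg adjustment called 0 of them, and also 0 of all probe sets. Over all 65956 probe sets limma called 246, a share at which 0 of 63 does not set the relatives apart. In limma, 0 of the measured relatives were called different between Il2ramut/mut and WT Treg cells. This held for 11 IRF family relatives, 10 BATF and AP-1 partners, 6 Id and E proteins, 6 MAF family relatives, 9 AHR pathway genes, 11 BHLHE40 relatives and 10 PRDM family relatives. The medians of these lists lay between -0.11 and 0.07. Some relatives were above background on no array, among them Bhlhe41, Id4, Mafa and Maff. In the AHR pathway list this held for Ahrr, Cyp1a1, Cyp1a2, Cyp1b1 and Nqo1. For such genes the lack of a call says nothing of a difference.

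The nearest to a call was Arnt2, a relative of the AHR partner ARNT. It averaged 8.19 ± 0.30 in Il2ramut/mut Treg cells and 7.44 ± 0.08 in WT Treg cells (SD, n = 3 each, difference 0.75 ± 0.14 SE, limma adjusted p = 0.0716). Irf5 was next to Irf4 in direction, with 0.38 ± 0.11 (SE, limma adjusted p = 0.271), and Jun, an AP-1 subunit, had 0.55 ± 0.17 (SE, limma adjusted p = 0.320). For the E protein gene Tcf4 the value was -0.31 ± 0.08 (SE, limma adjusted p = 0.214). For Bach1 it was -0.09, for the circadian factor Clock 0.23 and for Prdm9 -0.29, and none of these passed.

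Between the cell types, some relatives were called, as were 7 of the 8 genes. Higher in Treg than in Tconv cells of either genotype were Irf5 and Irf2bpl, the E protein antagonist Id3, the small MAF gene Mafg, Arnt2 and the hypoxia factor gene Hif1a, and the clock genes Nr1d1 and Bmal1. Arnt2 was higher by 2.87 in Il2ramut/mut and by 2.08 in WT cells, and Hif1a by 1.98 in Il2ramut/mut and by 1.92 in WT cells. Prdm10, by contrast, was lower in Treg cells, with differences of -0.51 in Il2ramut/mut and -0.45 in WT cells. Fos (at least 1.33-fold), Jun (-1.33) and Prdm15 (-0.45) were called lower in Treg cells in the mutant comparison.

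Factors that hold T cells in a quiescent or lymphoid-homing state included several that were lower where 7 of the 8 genes were higher. Of 9 measured, 6 were called lower and 1, Id3, higher in Treg than in Tconv cells in either genotype. Of all probe sets, 5.91% were called lower in the Il2ramut/mut comparison and 3.52% in the WT comparison. The chromatin organiser gene Satb1 differed by -3.36 in Il2ramut/mut and -2.66 in WT cells, and Lef1, a partner of Wnt signals, by -3.00 in Il2ramut/mut and -2.58 in WT cells. Bach2, which represses effector genes, differed by -1.58 in Il2ramut/mut and -1.39 in WT cells.

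Between the genotypes in Treg cells, none of these 9 was called, where 0.202% of all probe sets were called lower. All 9 differences were negative (median -0.27), but the median of probe sets above background on at least 2 arrays was also below 0, at -0.04. Foxo1 (12.81 in Il2ramut/mut and 12.84 in WT) and Bcl6 (7.24 in Il2ramut/mut and 7.28 in WT) lay near that level. Satb1 had the lowest p, with 11.11 ± 0.30 in Il2ramut/mut and 11.83 ± 0.21 in WT Treg cells (SD, n = 3 each, difference -0.72 ± 0.16 SE, limma adjusted p = 0.124). Of the 4 measured naive T cell markers, Igfbp4 was called lower, with 7.70 ± 0.20 in Il2ramut/mut and 8.81 ± 0.26 in WT Treg cells (SD, n = 3 each, limma adjusted p = 0.0157), and the list's median was -0.47.

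Effector Treg products are the cytokines, surface receptors and granule proteins that accompany the effector state. Of 18 measured, 6 were called higher in Il2ramut/mut Treg cells and none lower, against 0.171% and 0.202% of all probe sets. For 17 of 18 the difference was positive, and the median was 0.80. The 18 include Ebi3, which was above background on no array, so its differences are fitted values and not measured ones. This list overlaps genes that the study itself took up from these arrays and is not independent evidence of a direction. Gzmb, the cytotoxic protease granzyme B, averaged 10.29 ± 0.04 in Il2ramut/mut and 7.15 ± 0.14 in WT Treg cells (SD, n = 3 each, 8.82-fold, limma adjusted p = 1.41e-05). Klrg1, an inhibitory receptor of terminally differentiated cells, was higher by 2.32 on the log2 scale (limma adjusted p = 0.00410) and Fgl2, a secreted suppressive protein, 4.23-fold higher (limma adjusted p = 0.00410).

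Ccr2, the receptor for inflammatory chemokines such as CCL2, was 3.17-fold higher (limma adjusted p = 0.0152). In both genotypes these products were also called higher in Treg than in Tconv cells of the same genotype. This held for 18 of 18 in Il2ramut/mut and 17 of 18 in WT cells, where Ebi3, at background on every array, is one of the 18. Of all probe sets, 5.43% were called higher in Treg than in Tconv cells in Il2ramut/mut and 4.37% in WT cells. In Tconv cells none of these products was called between the genotypes (median -0.08), where 0.00303% of all probe sets were.

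Of 9 measured proliferation markers, 4 were called higher in Il2ramut/mut Treg cells, namely Ccnb2, Mki67, Top2a and Cdk1, and all 9 differences were positive (median 0.83). Of all probe sets, 0.171% were called higher in this comparison. Bub1 and Birc5 are among the 9 but were above background on no array, so their differences are fitted values only. Mki67, which marks cycling cells, averaged 10.74 ± 0.37 in Il2ramut/mut and 9.08 ± 0.39 in WT Treg cells (SD, n = 3 each, limma adjusted p = 0.0172). Summed on the linear scale, the list reached 2133 to 3251 in Il2ramut/mut Treg, 836 to 1233 in WT Treg, 339 to 367 in Il2ramut/mut Tconv and 308 to 318 in WT Tconv cells. The part of a larger share of dividing cells in the differences of Prdm1, Maf and Ahr was not tested.

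Irf8, Irf4, Prdm1 and Maf are also expressed by other leukocytes, and some but not all markers of such cells were at background. On no array above background were 6 of 9 measured B cell markers (Cd79a, Ms4a1 and Pax5 among them), 4 of 5 plasma cell markers (all but Jchain), 7 of 12 myeloid and dendritic markers (Csf1r, Adgre1 and Flt3 among them), 2 of 6 NK and innate lymphoid markers (Ncr1 and Klre1) and 1 of 2 CD8 markers (Cd8a). Above background on all 10 arrays were Cd79b, the myeloid and dendritic markers Lyz2, Cd68 and Siglech, and Cd8b1. Jchain and the innate lymphoid marker Il23r exceeded background on 9 arrays and Cd22 on 8. Il23r averaged 7.57 in Il2ramut/mut Treg and 8.35 in WT Treg cells, and 5.43 in Il2ramut/mut Tconv and 5.03 in WT Tconv cells. Cd8b1, a chain of the CD8 coreceptor, averaged 9.37 in Il2ramut/mut Treg and 9.66 in WT Treg cells, and 9.84 in Il2ramut/mut Tconv and 10.39 in WT Tconv cells. The CD8 list summed on the linear scale to 519 to 849 in Il2ramut/mut Treg and 673 to 946 in WT Treg cells, and 936 to 937 in Il2ramut/mut Tconv and 1028 to 1810 in WT Tconv cells. None of the genes measured in these 5 lists was called between the genotypes in Treg or Tconv cells. Of all 65956 probe sets, 246 were called in Treg and 2 in Tconv cells, so the lack of a call in lists this small says little. Without a call, Cd22 was 6.04 to 6.08 in Il2ramut/mut and 6.51 to 7.05 in WT Treg cells, with no overlap. Il23r was also lower on average and Klrb1c higher (6.11 against 5.56), both with overlapping arrays. The summed linear signal of the plasma cell list was 134 to 143 in Il2ramut/mut Treg and 137 to 152 in WT Treg cells, and 135 to 141 in Il2ramut/mut Tconv and 138 to 141 in WT Tconv cells.

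For the myeloid and dendritic list the sum was 408 to 494 in Il2ramut/mut Treg and 432 to 469 in WT Treg cells, and 480 to 482 in Il2ramut/mut Tconv and 490 to 515 in WT Tconv cells. The B cell list reached 373 to 446 in Il2ramut/mut Treg and 407 to 476 in WT Treg cells, against 269 to 279 in Il2ramut/mut Tconv and 271 to 286 in WT Tconv cells. Within it, Cd79b and Cd22 were called higher in Treg than in Tconv cells of either genotype. The NK and innate lymphoid list summed to 323 to 421 in Il2ramut/mut Treg and 365 to 585 in WT Treg cells, against 199 to 221 in Il2ramut/mut Tconv and 204 to 236 in WT Tconv cells, and the part of any of these other cells in the differences of the 8 genes was not tested.

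**Figure D5:**
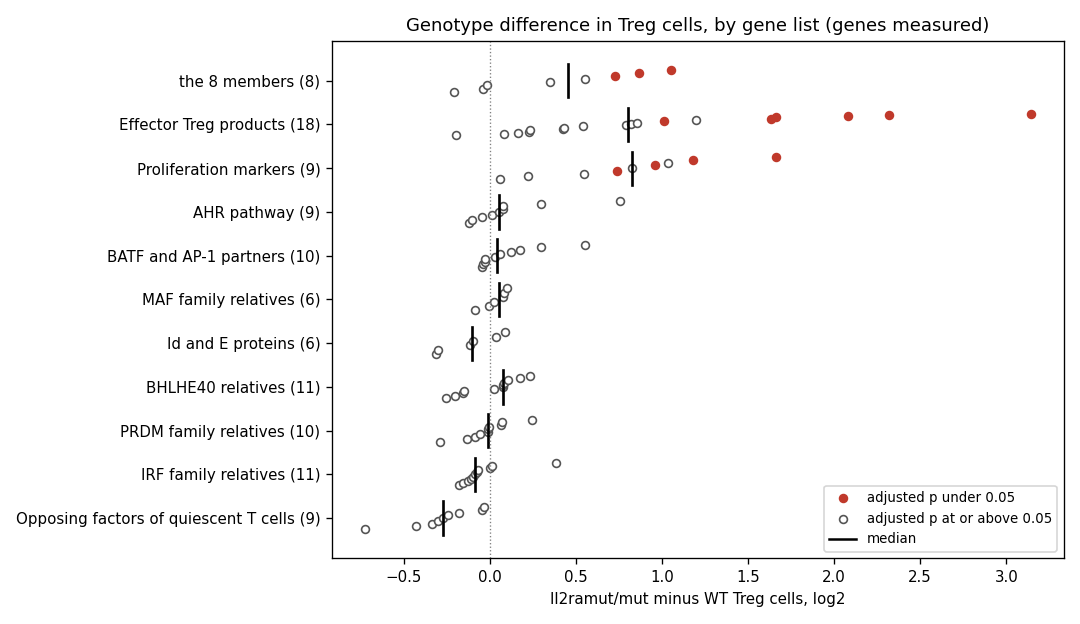
Il2ramut/mut minus WT difference in Treg cells on the log2 scale (x axis) for each gene of the 8 transcription factor genes and of 10 gene lists (y axis, genes measured in parentheses). Points are genes, filled red where called, and black lines are medians. Genes at background on every array, such as Ebi3, Bub1 and Birc5, are drawn as fitted values. Among the lists shown, calls are in the 8 factors, the effector Treg products and the proliferation markers, with medians of 0.45, 0.80 and 0.83. All 9 quiescence factors lie below 0, some of them close to it, and none is called.

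The genes whose signal followed each factor most closely over the 10 arrays were found by Pearson's r among 17650 genes. All arrays share the split between Treg and Tconv cells, which sets most of these correlations, and they are given as a description. Prdm1 was most like Myo1f (r = 0.997), Arel1 (0.996) and Ccr2 (0.995), Maf like Kcna3 (0.999), Gm13007 (0.998) and H2az1 (0.998), and Ahr like Ptprj (0.999), Osbpl3 (0.998) and Ptpn13 (0.997). Irf4 was most like Ptger4 (0.998), Swap70 (0.998) and Cldnd1 (0.997), and Irf8 like Ybx3 (0.996), Ikzf4 (0.995) and Tnfrsf4 (0.994).

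Batf was most like Xbp1 (0.998), Gm10177 (0.995) and Reep3 (0.993), and Bhlhe40 like Gpr83 (0.993), Ergic1 (0.992) and Vwa5a (0.992). Id2, whose signal hardly separated the cell types, had lower values, with Arfgap3 (0.927), Fam20b (0.918) and Tec (0.901). Ikzf4, Gpr83 and Tnfrsf4 are known Treg genes, and they stood beside Irf8 and Bhlhe40.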

How the data were processed

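RNA of sorted lymph node Treg and Tconv cells was amplified, biotin-labelled and measured on Affymetrix transcriptome arrays for mouse (version 1.0, Pico). The deposited table holds 1 log2 signal per probe set and array, which the authors made in Affymetrix Expression Console 1.4.1.46, with group comparisons in Transcriptome Analysis Console 3.1.0.5 per the submitters' processing notes. No source states the log base, which was taken from the size of the values. The summarisation, normalization and genome build were likewise not given in the sources used here.

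Without 6732 controls, 65956 of the 72688 probe sets report transcripts and entered the tests. In the platform annotation, with symbols updated through RefSeq (31290 matched), 31292 named 1 gene, 1522 several and 33142 none. Genes without a probe set naming them alone, Foxp3 among them, were given no value. A list gene with several probe sets was represented by the one of highest mean. Named from a list were the called genes, at most the 4 of lowest p in a comparison, or the 1 of lowest p where none was called. Also named were Foxo1, Bcl6 and some markers of other cells, for their values or detection.

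limma 3.58.1 in R 4.3.3 was fitted to all 10 arrays with 1 mean per group (6 residual and 3.54 prior degrees of freedom). The script was tested on simulated data. The study's methods used an unpaired one-way ANOVA (fold of at least 1.5, p of at most 0.01), which for a pair of groups is an equal-variance t-test, called the methods' t-test here. A bound ("at least") sets the brighter group's mean against the higher of background and signal on each dim array. Alternatives were quantile normalization, other sets of probe sets and arrays, an intensity trend, a replicate block, the methods' t-test and leaving out each array. The 8 genes and all gene lists were chosen with earlier results of these data known.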

Additional observations from a re-analysis of the deposited data

Results flagged for a closer look

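The genotype difference of Maf had opposite signs in the cell types. All 3 Il2ramut/mut Treg arrays lay above all 3 WT Treg arrays (difference 0.72, limma adjusted p = 0.0355), as for 8.24% of all probe sets. Both Il2ramut/mut Tconv arrays lay below both WT Tconv arrays (-0.37, limma adjusted p = 0.646), which was not called. Tconv arrays of the genotypes did not overlap, in either direction, for 32.9% of all probe sets. The interaction test for Maf gave 1.09 ± 0.18 (SE), with an unadjusted limma p of 0.000137 and an adjusted p of 0.184, and it did not pass (0.0955 to 0.366 over the alternatives).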

How the results depend on the processing

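With each array left out, 0 to 2 of the 8 genes were called in the Treg genotype comparison, against 3 with all arrays. Only the Treg arrays in the fit called 1 (Prdm1), and the replicate block and the methods' t-test after Benjamini-Hochberg adjustment called 0 each. The methods' own threshold was met by 3 (Prdm1, Maf and Ahr), and by 386 of all 65956 probe sets. The study's discussion names both Prdm1 and Irf4 among its differing transcription factor genes. Irf4, at 1.47-fold, missed the fold of at least 1.5 here. Quantile normalization, 1-gene probe sets, probe sets above background, the intensity trend and, added after seeing the data, identifiers starting TC called 3 each. The adjusted t-test called 3 of 8 in WT Treg against WT Tconv cells, against 7 in limma. Of all 65956 probe sets it called 647 in that comparison, against 5206 in limma. No alternative called any of the 8 genes in Tconv cells or in the interaction.

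Under quantile normalization the sign turned for Irf8 (0.027) and Batf (0.027) in the Treg genotype comparison and for Batf in the interaction (0.066). Leaving out arrays gave -0.056 to 0.031 for Irf8 and -0.16 to 0.039 for Batf in Treg cells. In Tconv cells it gave -0.032 to 0.27 for Prdm1, -0.31 to 0.24 for Batf, -0.059 to 0.22 for Ahr and, as fitted values of signals at background and not a measured difference, -0.25 to 0.13 for Bhlhe40. In the interaction it gave -0.012 to 0.22 for Irf8, -0.28 to 0.28 for Batf, -0.12 to 0.14 for Id2 and, fitted on the same Tconv signals at background, -0.34 to 0.043 for Bhlhe40. None of these was called, and the cause was not tested. The mean over a gene's probe sets equals its single probe set here.

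Deviations of same-numbered arrays from their group means had r between -0.14 and 0.13 over 34352 probe sets. For WT Treg with WT Tconv cells r was 0.077 and 0.083. Arrays of different numbers were not compared, so these values cannot decide whether the numbers pair mice. The main fit used no pairing, as the study's ANOVA was unpaired. A block with the Tconv numbers crossed, added after seeing the data, also called 0 of the 8. With 2 or 3 arrays in a group, genotype differences the size of those of Irf4 and Id2 were not separable from array spread after adjustment.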

Other observations

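Jun, the AP-1 subunit that pairs with BATF, had the lowest p of the BATF and AP-1 partners in the Tconv genotype comparison. It averaged 8.03 ± 0.07 in Il2ramut/mut and 6.22 ± 0.54 in WT Tconv cells (SD, n = 2 each, 3.51-fold, limma adjusted p = 0.149), and did not pass. The interaction for Jun was -1.26 ± 0.27 (SE, limma adjusted p = 0.301). Irf9, a mediator of interferon signals, had the lowest p of the IRF family relatives there, with 9.98 ± 0.10 in Il2ramut/mut and 10.62 ± 0.07 in WT Tconv cells (SD, n = 2 each, limma adjusted p = 0.387).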
